A study of Mus musculus with 154 samples.

Results

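The livers of 8 (B6 X B6.A14)F1 mice were compared with those of 20 B6 mice, 28 of the 154 livers of the series, over all 13289 genes of the count table. B6 is the inbred strain C57BL/6J. B6.A14 is a chromosome substitution strain, B6 in every chromosome but the pair 14, which comes from the strain A/J. Males of B6 were bred with females of B6.A14, so each (B6 X B6.A14)F1 mouse carried 1 A/J and 1 B6 copy of chromosome 14, and was B6 on all other chromosomes. The mice of both groups were males, killed at 5 weeks of age after an overnight fast, and total RNA of the caudate lobe was sequenced. In all strains used below the A/J chromosome 14 came from the dam, so the dam's own genotype and the inherited chromosome cannot be told apart. Mice came from several breeding cages per cross, but the labels do not tie a mouse to a cage or litter, and p-values measure the spread between mice.

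A gene on the substituted chromosome is called cis here and a gene elsewhere trans. Of the 13289 genes, 430 were on chromosome 14 and 12859 were not, 47 of which have no position in the annotation used. A cis difference can arise from a variant near the gene itself, since only chromosome 14 carries A/J alleles. Chromosome 14 holds genes with well known roles in liver, among them the methionine adenosyltransferase Mat1a, the inter-alpha-trypsin inhibitor heavy chains, and the RNA of ribonuclease P. Levels are in CPM, read counts scaled to a common library size by TMM normalization, and are not corrected for gene length. A gene was called higher or lower when edgeR's quasi-likelihood test gave a Benjamini-Hochberg false discovery rate (FDR) under 0.05, computed within cis and within trans genes. Fold changes are (B6 X B6.A14)F1 over B6 on the log2 scale with their standard error (SE).

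The 8 libraries held 12421787 to 23161327 counts and the 20 B6 libraries 6752637 to 25630807. Within each group every library's log2 CPM followed the group median over 7826 genes, with Spearman correlations of 0.979 to 0.990 and 0.970 to 0.992. The first principal component of the 28 livers held 24.4% of their variance, and 5 of the 8 (B6 X B6.A14)F1 mice, mice 4 to 8, lay above every B6 mouse on it. Mice 1, 2 and 3, at -2.31, 4.06 and -2.21, lay within the B6 range of -13.6 to 7.03. Mice 7 and 8 had the largest values, 27.7 and 20.8, with mouse 5 close to them at 20.3. Counts were also computed without mice 7 and 8, a choice made after seeing the data. The summed CPM of 8 hepatocyte markers ran from 59375 to 127076 in (B6 X B6.A14)F1 and from 101904 to 158127 in B6, which fits the label liver in both.

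The sequences of some genes that the results below turn on are given first. The 3 inter-alpha-trypsin inhibitor heavy chain genes on chromosome 14, Itih4, Itih3 and Itih1, stand side by side and were all lower. Their RefSeq promoter windows (build GRCm38.p6, 250 bases before to 50 after the start) are chr14:30886226-30886525 on the plus strand, chr14:30923538-30923837 on the minus strand and chr14:30943240-30943539 on the minus strand. Capitals mark matches on either strand to TTCNNNGAA, the core bound by STAT factors, TTGCNNAA, a form bound by C/EBP factors, and TATAAA, the TATA box.
Itih4: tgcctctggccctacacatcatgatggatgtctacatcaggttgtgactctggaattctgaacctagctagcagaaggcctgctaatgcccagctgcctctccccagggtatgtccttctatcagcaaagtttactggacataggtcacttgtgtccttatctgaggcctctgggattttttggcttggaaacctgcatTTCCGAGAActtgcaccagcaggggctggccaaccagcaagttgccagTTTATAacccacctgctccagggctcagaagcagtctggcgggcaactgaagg
Itih3: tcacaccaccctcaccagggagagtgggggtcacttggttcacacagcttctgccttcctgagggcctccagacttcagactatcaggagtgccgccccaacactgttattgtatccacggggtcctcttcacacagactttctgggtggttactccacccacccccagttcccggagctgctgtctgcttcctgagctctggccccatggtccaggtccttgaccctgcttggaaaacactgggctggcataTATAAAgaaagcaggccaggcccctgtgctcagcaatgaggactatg
Itih1: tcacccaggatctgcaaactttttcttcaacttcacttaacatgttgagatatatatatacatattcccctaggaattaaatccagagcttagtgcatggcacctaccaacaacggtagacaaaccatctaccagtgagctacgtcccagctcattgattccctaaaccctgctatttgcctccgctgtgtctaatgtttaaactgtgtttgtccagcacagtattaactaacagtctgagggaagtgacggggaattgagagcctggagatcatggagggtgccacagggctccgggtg
The Itih4 window held 1 match to TTCNNNGAA, starting 51 bases before the gene's start, and 1 to TATAAA on the reverse strand, starting 3 bases before it. The Itih3 window held 1 match to TATAAA, starting 3 bases after the start, and the Itih1 window held none of the 3 motifs. Both TATAAA matches lie at the annotated start itself, and whether they act as a TATA box was not tested. Of all 32851 promoter windows in the table, 8.30% held TTCNNNGAA, 10.8% TTGCNNAA and 13.6% TATAAA.

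Lacc1, which encodes an enzyme of purine nucleoside metabolism, and Ccdc122, a coiled-coil protein gene, start on opposite strands within 1 short interval and were both lower. The stretch that their RefSeq promoter windows share is chr14:77036568-77036821 (GRCm38.p6), written here on the plus strand with each CG dinucleotide in capitals.
Ccdc122 and Lacc1: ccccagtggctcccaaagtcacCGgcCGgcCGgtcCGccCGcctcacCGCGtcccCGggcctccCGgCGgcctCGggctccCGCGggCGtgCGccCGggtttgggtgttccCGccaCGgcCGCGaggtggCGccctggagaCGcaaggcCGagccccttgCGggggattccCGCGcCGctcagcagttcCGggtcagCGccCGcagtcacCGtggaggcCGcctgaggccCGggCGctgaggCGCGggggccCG
It held 37 CG dinucleotides in 254 bases, a density reached by 2.25% of all promoter windows.

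Ribonuclease P matures transfer RNA, and its RNA subunit is encoded by Rpph1 on chromosome 14 (chr14:50807449-50807767, minus strand) with a near copy, Rprl3, on chromosome 8 (chr8:3803069-3803358, minus strand). The first 200 bases of both RNAs are shown from GENCODE vM21 (GRCm38) with the bases that differ in capitals.
Rpph1: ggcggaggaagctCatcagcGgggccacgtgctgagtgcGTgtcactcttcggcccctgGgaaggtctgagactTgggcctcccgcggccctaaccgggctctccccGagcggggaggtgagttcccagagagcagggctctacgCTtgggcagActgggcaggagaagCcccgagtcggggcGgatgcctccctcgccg
Rprl3: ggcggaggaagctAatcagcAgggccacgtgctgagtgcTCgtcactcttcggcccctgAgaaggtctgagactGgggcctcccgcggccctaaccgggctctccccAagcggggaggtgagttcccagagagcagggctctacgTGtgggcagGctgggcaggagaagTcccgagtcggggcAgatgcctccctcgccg
They differed at 12 of 200 positions (94.0% identical), and no stretch of 50 bases in Rprl3, the length of the reads, occurred unchanged in Rpph1. The only microRNA gene among the called cis genes was Mir15a, whose mature product miR-15a-5p (RefSeq, chr14:61632075-61632096, minus strand) is given with its seed, bases 2 to 8, in capitals.
miR-15a-5p: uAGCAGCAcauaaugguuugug
It was named after its values were seen.

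Of the 430 chromosome 14 genes, 139 differed between the groups (32.3%), 66 higher (15.3%) and 73 lower (17%). Of the 12859 genes elsewhere, 2857 differed (22.2%), 1260 higher (9.8%) and 1597 lower (12.4%). The median absolute log2 fold change was 0.27 among called cis and 0.27 among called trans genes. The absolute log2 fold change was over 0.5 for 21 cis genes and over 1 for 1, and for 431 and 71 trans genes. Called cis genes were found all along the chromosome, in each stretch of 10 Mb, with shares from 11 of 59 genes between 60 and 70 Mb to 4 of 6 between 90 and 100 Mb. In 4 cis genes, all called, no mouse of one group reached the range of the other: Arhgef40, Itih1, Ndrg2 and Ubac2. Over all genes this held for 23 (0.173%). Without mice 7 and 8, 86 cis and 1417 trans genes were called, and with 10 surrogate variables in place of 5, 64 and 728. Surrogate variables are covariates estimated from the counts that stand for variation between libraries not due to strain.

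**Figure D1:**
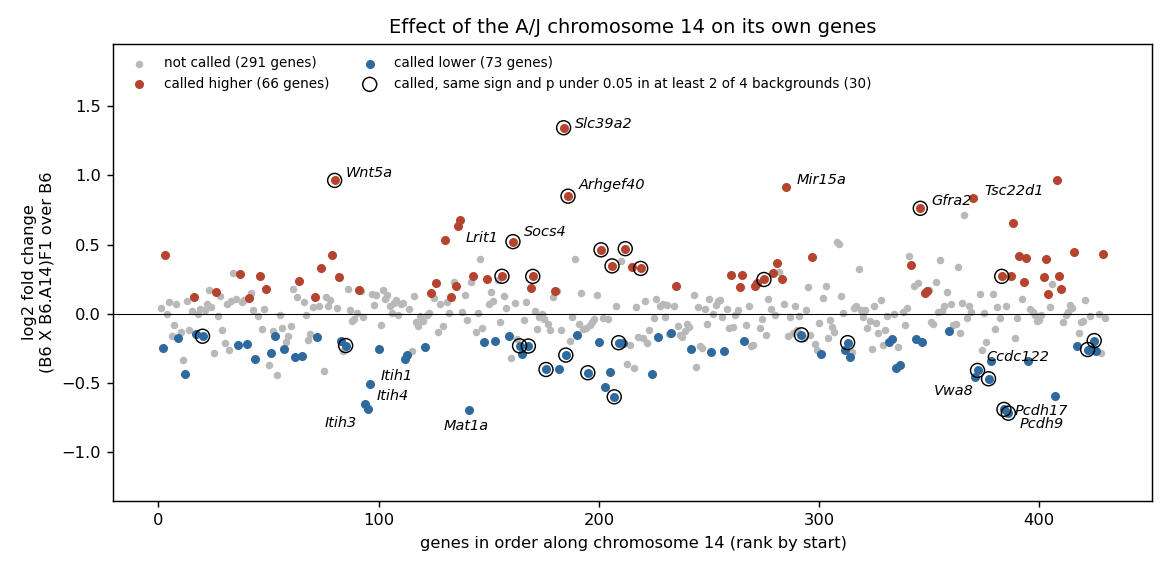
The log2 fold change of (B6 X B6.A14)F1 over B6 (vertical axis) for the 430 chromosome 14 genes in their order along the chromosome (horizontal axis, rank). The 66 red points are called higher, the 73 blue points called lower, and circles mark the 30 called genes repeated in at least 2 of 4 other backgrounds; the Itih genes and Mat1a lie among the lowest points and Slc39a2 is the highest.

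Among the chromosome 14 genes that were higher, Arhgef40, a guanine nucleotide exchange factor for small GTPases, had the smallest p. It was at 6.90 to 10.8 CPM (median 8.64) in B6 and 12.7 to 18.7 CPM (median 14.6) in (B6 X B6.A14)F1. All 8 mice lay above every B6 mouse (log2 fold change 0.85 ± 0.09 (SE), FDR = 9.76e-15). Arhgef40 overlaps the end of Zfp219 on the other strand, which was not called (-0.19, FDR = 0.131). Socs4, of the suppressor of cytokine signalling family, was at 18.7 to 31.6 CPM (median 24.9) in B6 and 28.7 to 45.3 CPM (median 37.8) in (B6 X B6.A14)F1. All 8 mice were above the B6 median, though the lowest overlapped the highest B6 mice (log2 fold change 0.52 ± 0.06 (SE), FDR = 8.29e-12).

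Tsc22d1, a leucine zipper protein induced by TGF-beta, was at 16.2 to 50.1 CPM (median 27.7) in B6 and 33.6 to 69.4 CPM (median 43.3) in (B6 X B6.A14)F1. Again all 8 mice exceeded the B6 median and the ranges overlapped (log2 fold change 0.84 ± 0.20 (SE), FDR = 6.75e-04). Lrit1, a leucine-rich transmembrane protein gene known mainly from retina, was at 6.10 to 18.2 CPM (median 10.47) in B6 and 11.6 to 19.99 CPM (median 13.5) in (B6 X B6.A14)F1 (log2 fold change 0.64 ± 0.11 (SE), FDR = 3.16e-06). Klf12, a Krüppel-like transcription factor, was at 6.40 to 11.9 CPM (median 9.25) in B6 and 10.54 to 14.7 CPM (median 12.5) in (B6 X B6.A14)F1 (log2 fold change 0.42 ± 0.10 (SE), FDR = 2.51e-04). Dnase1l3, a secreted nuclease made in liver largely by non-parenchymal cells, was at 16.6 to 33.9 CPM (median 25.5) in B6 and 25.9 to 39.3 CPM (median 30.1) in (B6 X B6.A14)F1 (log2 fold change 0.42 ± 0.09 (SE), FDR = 1.31e-04). In each of these 3 genes the 8 mice were above the B6 median and the groups overlapped.

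The other 6 of the 12 largest increases at an average log2 CPM of at least 2 were between 0.40 and 0.53. They were Fam25c at 0.53 (FDR = 0.00347), 1700123O20Rik at 0.47 (FDR = 4.30e-09), the Ras-like GTPase gene Rap2a at 0.45 (FDR = 1.59e-04), Erc2, known from the presynaptic active zone, at 0.43 (FDR = 0.00198), the ubiquitin hydrolase gene Uchl3 at 0.40 (FDR = 2.44e-05) and the processed transcript Gm17066 at 0.40 (FDR = 0.00117). Gm17066 lies inside Rbm26 on the same strand, 1700123O20Rik overlaps Acin1, and reads of such pairs may be shared. Fam25c, Erc2 and Gm17066 did not pass with 10 surrogate variables (FDR = 0.179, 0.0834 and 0.0840). Below that level, Slc39a2, a zinc importer, had the largest cis change of all. It was at 0.00 to 1.39 CPM (median 0.504) in B6 and 1.16 to 2.15 CPM (median 1.48) in (B6 X B6.A14)F1, with all mice but 1 of B6 below every (B6 X B6.A14)F1 mouse (log2 fold change 1.34 ± 0.24 (SE), FDR = 5.57e-06). Mir15a was at 0.200 to 1.23 CPM (median 0.511) in B6 and 0.536 to 1.42 CPM (median 0.885) in (B6 X B6.A14)F1 (log2 fold change 0.91 ± 0.22 (SE), FDR = 6.26e-04), and its host transcript Dleu2, which it lies within, was at 0.25 ± 0.10 (FDR = 0.0444), a call lost without (B6 X B6.A14)F1 replicate 6 (FDR = 0.121). These are total RNA reads, in which a microRNA hairpin and its host cannot be told apart.

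**Figure D2:**
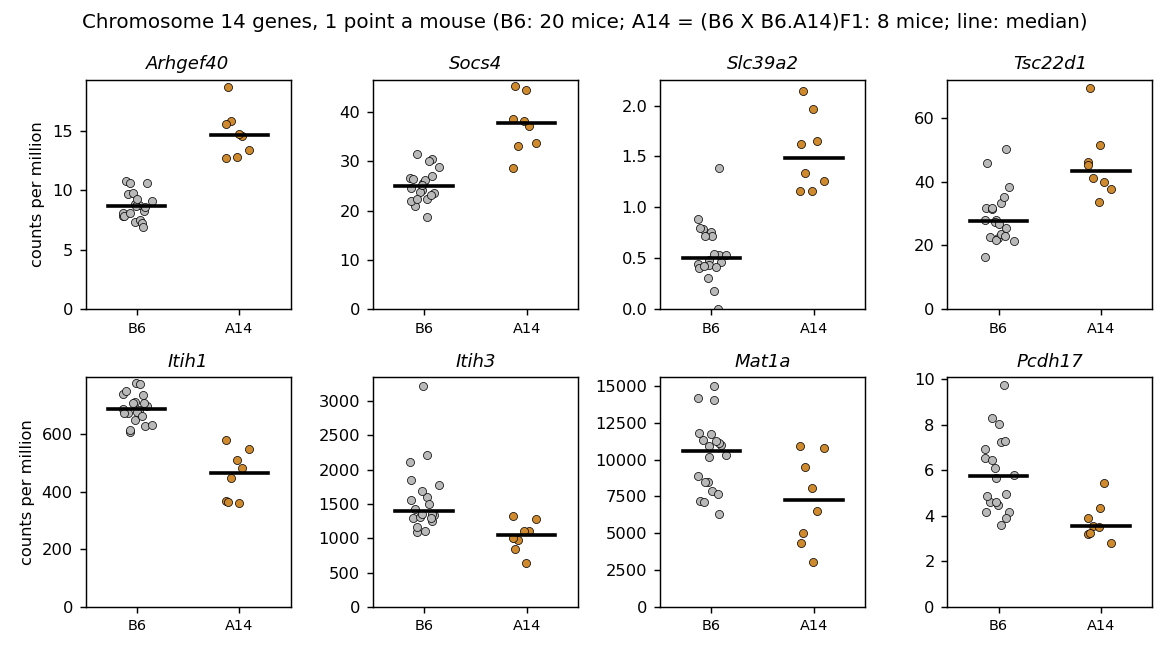
CPM in each mouse (vertical axes, linear from 0) for 8 chromosome 14 genes in 20 B6 mice (grey) and 8 (B6 X B6.A14)F1 mice (orange), with a line at the median. Arhgef40 and Itih1 separate the groups completely, whereas Mat1a spreads from 3066 to 10914 CPM within (B6 X B6.A14)F1.

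Among the chromosome 14 genes that were lower, those for plasma proteins and liver enzymes had the highest levels. Mat1a makes S-adenosylmethionine, the methyl donor, in liver. It was at 6338 to 14988 CPM (median 10617) in B6 and 3066 to 10914 CPM (median 7286) in (B6 X B6.A14)F1. Of the 8 mice 2 exceeded the B6 median, and the groups overlapped (log2 fold change -0.69 ± 0.10 (SE), FDR = 6.86e-08). Itih3 and Itih4 encode hyaluronan-binding or related plasma heavy chains. Itih3 was at 1089 to 3217 CPM (median 1391) in B6 and 638 to 1327 CPM (median 1049) in (B6 X B6.A14)F1, Itih4 at 1065 to 2911 CPM (median 1304) in B6 and 625 to 1182 CPM (median 908) in (B6 X B6.A14)F1 and Itih1 at 607.8 to 777 CPM (median 686) in B6 and 362 to 581 CPM (median 465) in (B6 X B6.A14)F1. All 8 mice were below the B6 median in each gene and below every B6 mouse in Itih1. The changes were -0.68 ± 0.11 for Itih3, -0.65 ± 0.13 for Itih4 and -0.51 ± 0.07 for Itih1, with FDR = 9.34e-08, 5.86e-05 and 4.30e-09. The neighbours on either side, Mustn1 and Nek4, were not called (-0.02 (FDR = 0.929) and 0.14 (FDR = 0.0867)). Itih2, a further heavy chain gene on chromosome 2, was also lower, at 1208 to 1750.2 CPM (median 1408) in B6 and 635 to 1047 CPM (median 896) in (B6 X B6.A14)F1 (log2 fold change -0.66 ± 0.08 (SE), FDR = 9.20e-09), and was named after its values were seen.

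The remaining large decreases were at lower levels. The protocadherin gene Pcdh17 was at 3.59 to 9.72 CPM (median 5.72) in B6 and 2.79 to 5.45 CPM (median 3.54) in (B6 X B6.A14)F1, with all 8 mice below the B6 median (log2 fold change -0.69 ± 0.15 (SE), FDR = 1.57e-04). Ajuba, a LIM domain adaptor of cell junctions, changed by -0.60 (FDR = 2.06e-04), the membrane metalloproteinase gene Mmp14 by -0.52 (FDR = 1.22e-05), Vwa8, a mitochondrial ATPase, by -0.47 (FDR = 3.76e-06), and Prmt5, the main symmetric arginine methyltransferase, by -0.42 (FDR = 8.62e-06). In these 4 genes no (B6 X B6.A14)F1 mouse exceeded the B6 median. Vwa8 did not pass with 10 surrogate variables (FDR = 0.0659). The divergent pair shown above changed alike, Lacc1 by -0.45 (FDR = 3.88e-04) and Ccdc122 by -0.41 (FDR = 3.88e-04), with 1 of 8 mice above the B6 median in each. Gm26782, annotated as antisense to Tep1, changed by -0.40 (FDR = 0.00149) while Tep1 did not pass the test (-0.03, FDR = 0.802), but the strand setting of the counting is not given in the sources used here.

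The chromosome 14 genes were also counted by role. Of 30 measured genes in a list of metabolic enzymes, which also holds other proteins such as Cideb and Psme1, 14 were lower and 0 higher. The median log2 fold change of the list was -0.13 against -0.0046 over all cis genes. Beside Mat1a the lower genes included the epoxide hydrolase Ephx2 (-0.31, FDR = 3.88e-04), the lipid droplet protein Cideb (-0.25, FDR = 5.52e-04) and the mitochondrial cyclophilin Ppif (-0.30, FDR = 0.00172). Of these 4 named genes 1 kept its call with 10 surrogate variables. Of 30 secreted and surface proteins, 9 were lower and 3 higher (median -0.07), Tm9sf2 among the lower (-0.25, FDR = 4.83e-06). Of 29 regulators, 6 were higher and 0 lower (median 0.04). They included Appl1, an adaptor of adiponectin and insulin signalling (0.33, FDR = 4.06e-05), Tsc22d1, Klf12 and the cohesin release factor Wapl (0.12, FDR = 0.0135). The shares over all cis genes are the 15.3% higher and 17% lower given above. Without mice 7 and 8 the counts were 5 lower of the enzyme list, 6 lower and 3 higher secreted or surface proteins and 4 higher regulators. Of all 430 cis genes 43 were then higher and 43 lower, and the 3 of 30 higher secreted or surface proteins are near that share. With 10 surrogate variables the list counts were 4, 7 and 2, and 3. Of all 430 cis genes 29 were higher and 35 lower in that fit.

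The series allows the chromosome 14 effect to be measured again in mice of neither group, although these mice share the fit's dispersions and surrogate variables with the calls. In 4 further pairs of strains, both members also carried 1 A/J copy of chromosome 4, 5, 8 or 10, inherited from the sire, and only 1 member carried the A/J chromosome 14. These pairs were (B6.A4 X B6.A14)F1 against (B6.A4 X B6)F1, and likewise for chromosomes 5, 8 and 10, with 5 mice against 8, 7, 8 and 8. They share no mouse with each other or with the B6 comparison. One (B6.A4 X B6.A14)F1 mouse had 2.94 CPM over 4 Y-linked genes, against 228 to 432 CPM in all other mice, although the study describes males. Only the counts of repeated calls in that pair are also given without it, and all other values of the pair include it. Without that mouse in the fit, 135 cis and 2567 trans genes were called against B6.

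Of the 139 called cis genes, 48 (34.5%) had the same sign and an unadjusted p under 0.05 in the pair with chromosome 4, against 18.6% of all cis genes. The counts were 26 with chromosome 5 (18.7%, against 11.9% of all cis genes), 18 with chromosome 8 (12.9%, against 11.2%) and 32 with chromosome 10 (23.0%, against 12.3%). Without the mouse lacking Y-linked counts the pair with chromosome 4 gave 44. The opposite sign at that p was found for 6, 2, 60 and 1 of the 139, so the pair with chromosome 8 stood apart. Its reference strain, (B6.A8 X B6)F1, can itself differ from B6, so a sign there is not one against B6. Median Dnase1l3 was 30.2 CPM in (B6.A8 X B6)F1, 24.8 in (B6.A8 X B6.A14)F1 and 25.5 in B6. Median Ccdc122 was 10.4, 4.62 and 7.63 CPM in the same order. The part of the reference strain in these signs was not tested. In all, 30 called cis genes (21.6%) had the same sign and an unadjusted p under 0.05 in at least 2 of the 4 pairs, against 11.9% of all cis genes. The opposite sign at that p in at least 2 pairs was found for 4 (2.88%, against 3.26% of all cis genes): Rb1, Dct, Mbl1 and Fam25c, named after their values were seen.

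For the 2857 called trans genes the counts of the same sign at that p were 405 with chromosome 4 (14.2%, against 9.44% of all trans genes), 97 with chromosome 5 (3.40%, against 3.5%), 18 with chromosome 8 (0.630%, against 3.93%) and 130 with chromosome 10 (4.55%, against 3.9%). Without the mouse lacking Y-linked counts the first was 368. The opposite sign was found for 161, 87, 1681 and 115. At least 2 of 4 pairs had the same sign and an unadjusted p under 0.05 for 86 called trans genes (3.01%, against 2.46% of all trans genes), and the opposite sign at that p for 155 (5.43%, against 3.76%). In the pair with chromosome 8, 2631 trans genes passed an FDR of 0.05, against 4 to 282 in the other 3. Signs in that pair are again relative to (B6.A8 X B6)F1 and not to B6.

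Tested as 1 contrast, the mean effect of the 4 pairs was called for 63 cis genes (14.7%) and 293 trans genes (2.28%). Of these, 28 cis genes were called in the B6 background with the same sign and 8 with the opposite sign, and 11 and 99 trans genes. Without the pair with chromosome 8 the mean was called for 78 cis and 282 trans genes, of which 37 cis and 53 trans genes had the same sign and 1 and 31 the opposite. The difference between the effect in B6 and the mean of the 4 pairs was itself called for 93 cis and 2702 trans genes, and for 52 and 1295 without the pair with chromosome 8. Both mean contrasts were chosen after seeing the data.

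**Figure D3:**
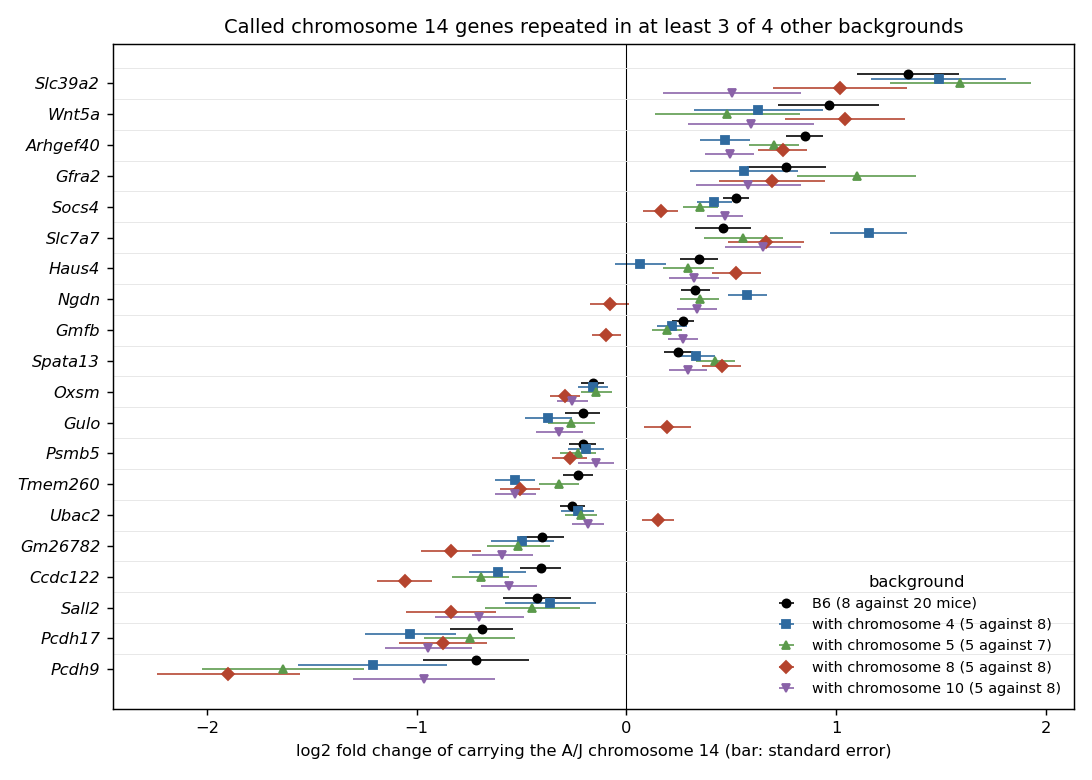
Log2 fold change of carrying the A/J chromosome 14 (horizontal axis, bars are SE) for the 20 called cis genes repeated in at least 3 of 4 other backgrounds, in the B6 background (black) and beside A/J chromosome 4, 5, 8 or 10 (colours). Arhgef40, Slc7a7, Pcdh17 and Ccdc122 keep their sign in all 5 comparisons, and Ubac2, Gulo, Gmfb and Ngdn cross 0 beside chromosome 8.

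In 20 cis genes the same sign and an unadjusted p under 0.05 were found in at least 3 pairs (14.4% of the 139, against 6.28% of all cis genes), and in 9 of them in all 4. The opposite sign at that p in at least 3 pairs was found for 1 called cis gene, against 0.698% of all cis genes. The 20 genes were selected for this pattern, so their values are a description, given in the order of chromosomes 4, 5, 8 and 10. The 9 were Arhgef40 (0.47, 0.70, 0.75 and 0.49), the neurturin receptor gene Gfra2 (0.56, 1.10, 0.70 and 0.58), the cationic amino acid transporter gene Slc7a7 (1.16, 0.56, 0.67 and 0.65), the guanine nucleotide exchange factor gene Spata13 (0.33, 0.42, 0.45 and 0.29), Pcdh17 (-1.03, -0.75, -0.87 and -0.94), its relative Pcdh9 (-1.21, -1.64, -1.90 and -0.96), Ccdc122 (-0.61, -0.69, -1.06 and -0.56), Tmem260, a protein O-mannosyltransferase (-0.53, -0.32, -0.51 and -0.53), and Gm26782 (-0.50, -0.51, -0.84 and -0.59). By strain, Arhgef40 was at 12.8 to 18.7 CPM in (B6.A4 X B6.A14)F1 against 8.73 to 12.1 in (B6.A4 X B6)F1. It was at 11.9 to 15.6 against 7.28 to 9.76 in the pair with chromosome 5, 13.4 to 16.4 against 6.597 to 11.3 with chromosome 8 and 15.7 to 18.7 against 8.87 to 13.03 with chromosome 10. The ranges of the 2 strains did not touch in any of the 4 pairs.

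The 11 cis genes repeated in 3 pairs were Slc39a2, Socs4, Wnt5a, Haus4, Ngdn, Gmfb, Psmb5, Oxsm, Ubac2, Sall2 and Gulo. Slc39a2 overlaps Mettl17, Slc7a7 overlaps Oxa1l and Oxsm overlaps Ngly1 in the annotation, so their counts may hold reads of the neighbour. Wnt5a encodes a secreted Wnt ligand and was higher in the B6 background at 0.96 (FDR = 8.91e-04), Psmb5, a catalytic subunit of the proteasome, was lower at -0.21 (FDR = 0.00607), and Gulo, which encodes the last enzyme of ascorbate synthesis, was lower at -0.21 (FDR = 0.0444). The Itih genes and Mat1a were not repeated to that extent. Itih3 had -0.46, -0.03, 0.19 and 0.07 in the 4 pairs, Itih4 -0.49, 0.00, 0.49 and -0.06, Itih1 -0.31, -0.05, 0.51 and -0.16 and Mat1a -0.11, -0.11, 0.29 and 0.09. Each Itih gene passed an unadjusted p under 0.05 with the same sign in 1 pair, that with chromosome 4, and Mat1a in none.

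Outside chromosome 14, the largest difference was in Rprl3, the chromosome 8 copy of the ribonuclease P RNA. It was at 0.00 to 0.461 CPM (median 0.110) in B6 and 47.4 to 130.8 CPM (median 86.6) in (B6 X B6.A14)F1, with no overlap (log2 fold change 9.46 ± 0.24 (SE), FDR = 1.55e-71). Rpph1 itself was at 705 to 2295 CPM (median 1418) in B6 and 825 to 2021 CPM (median 1343) in (B6 X B6.A14)F1 and did not pass the test (log2 fold change -0.02 ± 0.20 (SE), FDR = 0.954). Over the whole series the 28 mice with an A/J chromosome 14 had 29.5 to 134 CPM of Rprl3 and the 109 mice with neither an A/J chromosome 14 nor 4 had 0.00 to 2.76. In the pairs with chromosomes 4, 5, 8 and 10 its fold changes were 0.32, 9.21, 9.43 and 8.26, and in the first pair both members carry the A/J chromosome 4. Rprl3 and Rpph1 share most of their sequence, so a read with mismatches could be assigned to either, and the level of Rprl3 is uncertain.

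The major urinary protein genes on chromosome 4 encode lipocalins that carry pheromones and are made in male liver under growth hormone. Of 18 measured, 17 were higher and 0 lower, with a median log2 fold change of 1.62 against -0.0054 over all genes outside chromosome 14. Their summed level was 6638 to 21312 CPM in (B6 X B6.A14)F1 and 2468 to 12373 in B6, so the groups overlapped. Mup17 at 4.53 (FDR = 2.68e-08), Mup16 at 2.84 (FDR = 1.17e-07), Mup11 at 2.84 (FDR = 4.53e-07), Mup18 at 2.71 (FDR = 6.61e-07), Mup9 at 2.47 (FDR = 1.01e-07), Mup12 at 2.06 (FDR = 2.09e-06) and Mup7 at 2.04 (FDR = 5.09e-04) were 7 of the 10 largest increases. These genes are near copies of each other, and the level of a single one is uncertain. In the pairs with chromosomes 4, 5, 8 and 10 the median over the 18 was 0.14, 0.24, -1.23 and -0.69.

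Genes known to differ between male and female liver were counted next. Of 19 male-biased growth hormone targets, 8 were higher and 0 lower (median 0.51), and 3 of the 8 are Mup genes. Fitted with 10 surrogate variables, 3 were higher (median 0.47), and with none 5 (median 0.10). In the pairs with chromosomes 4, 5, 8 and 10 the median was -0.40, -0.07, -0.57 and -0.52, below 0 in each. Elovl3, a fatty acid elongase, was at 8.34 to 179 CPM (median 41.4) in B6 and 32.04 to 243 CPM (median 99.9) in (B6 X B6.A14)F1 (log2 fold change 1.90 ± 0.36 (SE), FDR = 2.49e-05). It lost its call with 10 surrogate variables (FDR = 0.0780). The anion transporter gene Slco1a1 changed by 0.87 (FDR = 9.62e-05), and Mup3 and Mup1 by 0.85 (FDR = 2.01e-05) and 1.52 (FDR = 2.10e-05). Of 13 female-biased genes, 4 were lower and 0 higher (median -0.74), and with 10 surrogate variables 2 were lower. Their medians in the 4 pairs were 1.53, 0.32, 0.65 and -0.08. The 1.53, like the -0.40 of the male-biased genes, includes the (B6.A4 X B6.A14)F1 mouse lacking Y-linked counts and is not given without it. The part of that mouse in both values was not tested. Fmo4 changed by -0.74 (FDR = 2.10e-08) and Fmo2, which did not pass with 10 surrogate variables (FDR = 0.286), by -0.78 (FDR = 0.00254). Over all genes 9.98% were higher and 12.6% lower.

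**Figure D4:**
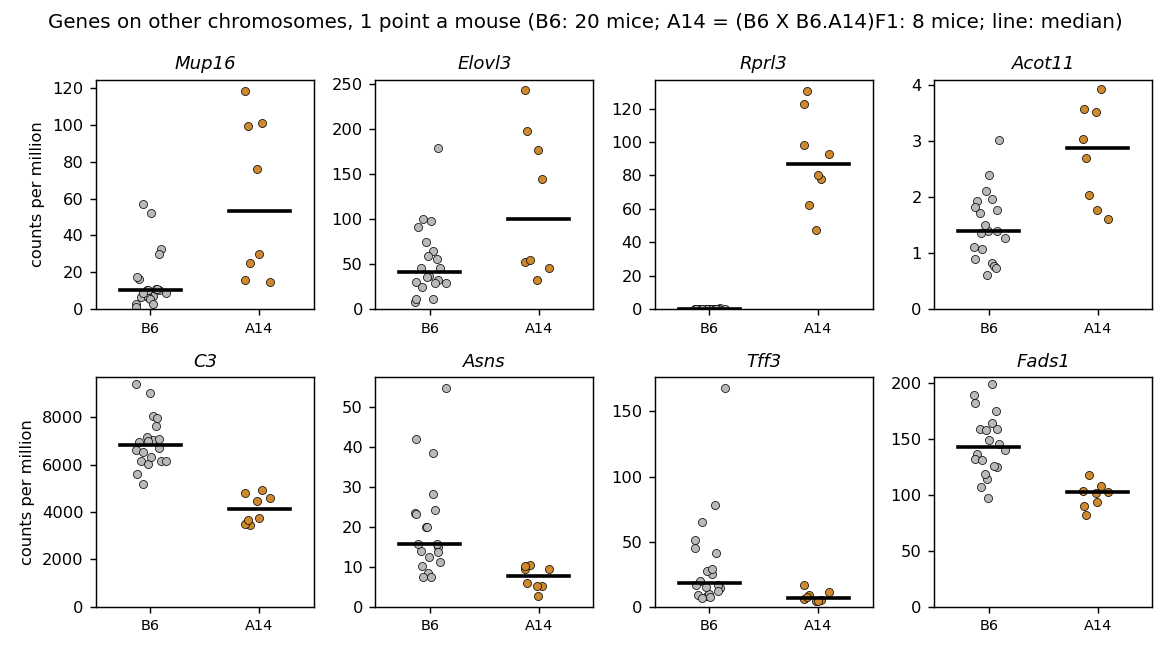
CPM in each mouse (vertical axes, linear from 0) for 8 genes on other chromosomes in 20 B6 mice (grey) and 8 (B6 X B6.A14)F1 mice (orange), with a line at the median. Rprl3 and C3 separate the groups without overlap, and Mup16 and Elovl3 fall into a low and a high part within (B6 X B6.A14)F1, whereas Asns and Tff3 spread within B6 up to 54.8 and 168 CPM.

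Large decreases outside chromosome 14 at an average log2 CPM of at least 2 included genes with a wide spread within B6. Tff3, a secreted trefoil peptide gene, was at 6.64 to 168 CPM (median 18.6) in B6 and 4.30 to 17.01 CPM (median 6.89) in (B6 X B6.A14)F1. No (B6 X B6.A14)F1 mouse exceeded the B6 median (log2 fold change -2.09 ± 0.41 (SE), FDR = 6.26e-05). Asns, asparagine synthetase, was at 7.36 to 54.8 CPM (median 15.7) in B6 and 2.80 to 10.49 CPM (median 7.63) in (B6 X B6.A14)F1, again with no mouse above the B6 median (log2 fold change -1.68 ± 0.32 (SE), FDR = 3.04e-05). Lepr, the leptin receptor, was at 10.1 to 212 CPM (median 40.1) in B6 and 16.2 to 58.7 CPM (median 26.1) in (B6 X B6.A14)F1 (log2 fold change -1.52 ± 0.34 (SE), FDR = 4.23e-04). Further large decreases were those of Slc22a26 at -1.51 (FDR = 0.0145), the lipid droplet gene Cidec at -1.44 (FDR = 0.00393), Lcn2, an iron-binding acute phase lipocalin, at -1.36 (FDR = 0.0215), the growth factor gene Nrg4 at -1.05 (FDR = 2.76e-05), the proton pump subunit gene Atp6v0d2 at -1.04 (FDR = 0.00557) and Slc41a3 at -1.04 (FDR = 2.13e-04). Below that level H19, an imprinted RNA of fetal liver named after its values were seen, was at 0.00 to 31.6 CPM (median 1.68) in B6 and 0.277 to 1.96 CPM (median 0.725) in (B6 X B6.A14)F1 (log2 fold change -3.26 ± 0.54 (SE), FDR = 2.11e-06). Slc22a26, Cidec, Nrg4 and Atp6v0d2 did not pass with 10 surrogate variables (FDR = 0.113, 0.715, 0.0849 and 0.0807), and with none Cidec and Lcn2 did not (FDR = 0.202 and 0.144). The call of Lcn2 was also lost without B6 replicate 7 (FDR = 0.232).

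No called trans gene had the same sign at that p in all 4 pairs, and 13 of the 2857 (0.455%) had it in 3, against 0.202% of all trans genes. The opposite sign at that p in at least 3 pairs was found for 19 (0.665%, against 0.467% of all trans genes). The 13 were Rprl3, Fads1, Asns, Tff3, Acot11, H2-Q10, Ebp, Bri3bp, Gk, 5830473C10Rik, Lpcat3, Plcb4 and Pop1, and were selected for this pattern. Fads1, the delta-5 desaturase of polyunsaturated fatty acid synthesis, was at 97.5 to 199 CPM (median 143) in B6 and 82.1 to 118 CPM (median 102) in (B6 X B6.A14)F1 (log2 fold change -0.48 ± 0.09 (SE), FDR = 1.47e-05). In the pairs with chromosomes 4, 5, 8 and 10 its fold changes were -0.34, -0.32, 0.31 and -0.27. Asns had -1.69, -1.61, 0.21 and -1.12 and Tff3 -1.99, -1.12, -0.39 and -1.27 in the same order. Acot11, an acyl-CoA thioesterase, was at 0.613 to 3.02 CPM (median 1.39) in B6 and 1.604 to 3.93 CPM (median 2.87) in (B6 X B6.A14)F1. All 8 mice were above the B6 median (log2 fold change 0.99 ± 0.20 (SE), FDR = 6.73e-05), and the pairs had 0.98, 0.75, 0.53 and 0.09. Strains with 1 other A/J chromosome also had Acot11 medians above B6, from 1.62 CPM with chromosome 17 to 4.62 with chromosome 4. Asns medians there were 3.61 CPM with chromosome 6, 4.92 with 3, 12.7 with 4 and 17.4 with 10. A difference from B6 in these genes is therefore not particular to the A/J chromosome 14.

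Of the others, Lpcat3, which places polyunsaturated chains into phospholipids, changed in the B6 background by -0.25 (FDR = 0.00508), Ebp, a sterol isomerase, by -0.20 (FDR = 1.34e-04), and Gk, glycerol kinase, by -0.30 (FDR = 0.00262). Pop1, a protein subunit of ribonuclease P, changed by -0.23 (FDR = 0.0455), the class Ib histocompatibility gene H2-Q10 by -0.28 (FDR = 9.14e-05), Bri3bp by 0.27 (FDR = 8.88e-04), Plcb4, a phospholipase C, by 0.28 (FDR = 0.0144) and 5830473C10Rik by -0.36 (FDR = 0.00288). The calls of Plcb4 and Pop1 were lost when 1 mouse was left out, (B6 X B6.A14)F1 replicate 8 (FDR = 0.0637) and B6 replicate 1 (FDR = 0.122). H2-Q10, Gk, Lpcat3 and Plcb4 did not pass with 10 surrogate variables, at FDRs from 0.114 to 0.329, and with none Bri3bp and Pop1 did not (FDR = 0.0927 and 0.318). H2-Q10 has near copies in the same cluster, and its level is uncertain.

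Many genes of hepatic fuel metabolism were lower in (B6 X B6.A14)F1, and few were higher. In gluconeogenesis, the synthesis of glucose that maintains plasma glucose in fasting, 13 of 18 were lower and 0 higher (median -0.40). Fbp1, fructose bisphosphatase, was at 804.5 to 1182 CPM (median 1023) in B6 and 512 to 975 CPM (median 785) in (B6 X B6.A14)F1 (log2 fold change -0.43 ± 0.07 (SE), FDR = 4.53e-07). Pcx, pyruvate carboxylase, changed by -0.59 (FDR = 3.30e-06), the aspartate aminotransferase gene Got2 by -0.44 (FDR = 7.62e-08) and the alanine aminotransferase gene Gpt by -0.41 (FDR = 4.53e-04), whereas the classic fasting genes Pck1 and G6pc, named after their values were seen, did not pass the test (-0.31 (FDR = 0.0671) and 0.21 (FDR = 0.502)). In glycolysis and glycogen metabolism, 12 of 19 were lower and 1 higher (median -0.26), with Eno1 at -0.47 (FDR = 5.12e-07), Pgm1 at -0.36 (FDR = 5.20e-07), Gapdh at -0.38 (FDR = 2.29e-06) and Ldha at -0.53 (FDR = 1.53e-05). In fatty acid oxidation and ketogenesis, 19 of 30 were lower and 0 higher (median -0.32). Cpt1a, which admits fatty acids to mitochondria, was at 499 to 1075 CPM (median 798) in B6 and 343 to 790.2 CPM (median 512) in (B6 X B6.A14)F1 (log2 fold change -0.60 ± 0.10 (SE), FDR = 3.91e-06), but with 10 surrogate variables it did not pass (FDR = 0.0953). The acyl-CoA dehydrogenase genes Acadvl and Acadl changed by -0.31 (FDR = 5.86e-06) and -0.46 (FDR = 1.01e-05), and Hadha by -0.44 (FDR = 4.65e-05). Of these 4 oxidation genes, Cpt1a included, 1 kept its call with 10 surrogate variables.

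In amino acid catabolism and the urea cycle, 19 of 31 were lower and 1 higher (median -0.27). Cps1, the first enzyme of the urea cycle, was at 6138 to 13634 CPM (median 10035) in B6 and 3185 to 9845 CPM (median 6685) in (B6 X B6.A14)F1 (log2 fold change -0.64 ± 0.09 (SE), FDR = 1.23e-07), and Fah, Aass and Agxt changed by -0.39 (FDR = 4.24e-08), -0.69 (FDR = 9.67e-07) and -0.59 (FDR = 1.94e-06). In the methionine and one-carbon cycle, 9 of 20 were lower and 1 higher (median -0.21), among them Mat1a from chromosome 14, Mthfd1 at -0.46 (FDR = 8.72e-07), Cbs at -0.34 (FDR = 8.27e-04) and Shmt1 at -0.27 (FDR = 0.00280). In fatty acid synthesis, 6 of 17 were lower and 1 higher (median -0.19), led by Fads1, Fads2 at -0.62 (FDR = 5.89e-05), Elovl5 at -0.69 (FDR = 3.21e-04) and Acaca at -0.35 (FDR = 4.41e-04). In cholesterol synthesis, 3 of 24 were lower and 0 higher (median -0.10), with Ebp as above and Sc5d at -0.20 (FDR = 0.00941). That share is close to the 12.6% of all genes. The lower counts of these last lists with 10 surrogate variables were 3 in fatty acid synthesis and 1 in cholesterol synthesis, and Fads2, Elovl5 and Sc5d did not pass (FDR = 0.258, 0.204 and 0.199).

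Many plasma protein genes were lower as well. In coagulation and complement, 19 of 33 were lower and 1 higher (median -0.22). C3, the central complement component, was at 5189 to 9382 CPM (median 6832) in B6 and 3472 to 4929.5 CPM (median 4112) in (B6 X B6.A14)F1, and no mouse of one group reached the range of the other (log2 fold change -0.66 ± 0.10 (SE), FDR = 1.30e-07). The groups were apart in 18 further trans genes, among them the genes of vitronectin, Vtn (-0.36, FDR = 2.49e-05), prothrombin, F2 (-0.27, FDR = 1.77e-05), and the protease inhibitor Pzp (-0.56, FDR = 3.62e-06), named after their values were seen. F5, Cfi and Serpinc1 changed by -0.49 (FDR = 1.01e-07), -0.39 (FDR = 5.96e-06) and -0.27 (FDR = 1.20e-05). Among acute phase genes 10 of 24 were lower and 0 higher (median -0.24), with Fga at -0.59 (FDR = 2.49e-05) and Fgb at -0.46 (FDR = 4.81e-04) beside Itih3 and Itih4. Of apolipoprotein and lipid transport genes, 13 of 24 were lower and 1 higher (median -0.24), with Apob at -0.37 (FDR = 1.34e-04), Lpl at -0.84 (FDR = 1.19e-05), Apof at -0.29 (FDR = 1.47e-05) and Lcat at -0.22 (FDR = 1.67e-04). Of the iron handling genes, 4 of 19 were lower and 1 higher (median -0.08), with Tfr2 at -0.47 (FDR = 7.56e-08), Tfrc at -0.73 (FDR = 4.33e-04), Aco1 at -0.25 (FDR = 3.62e-04) and Slc39a14, itself on chromosome 14, at -0.37 (FDR = 0.00188).

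**Figure D5:**
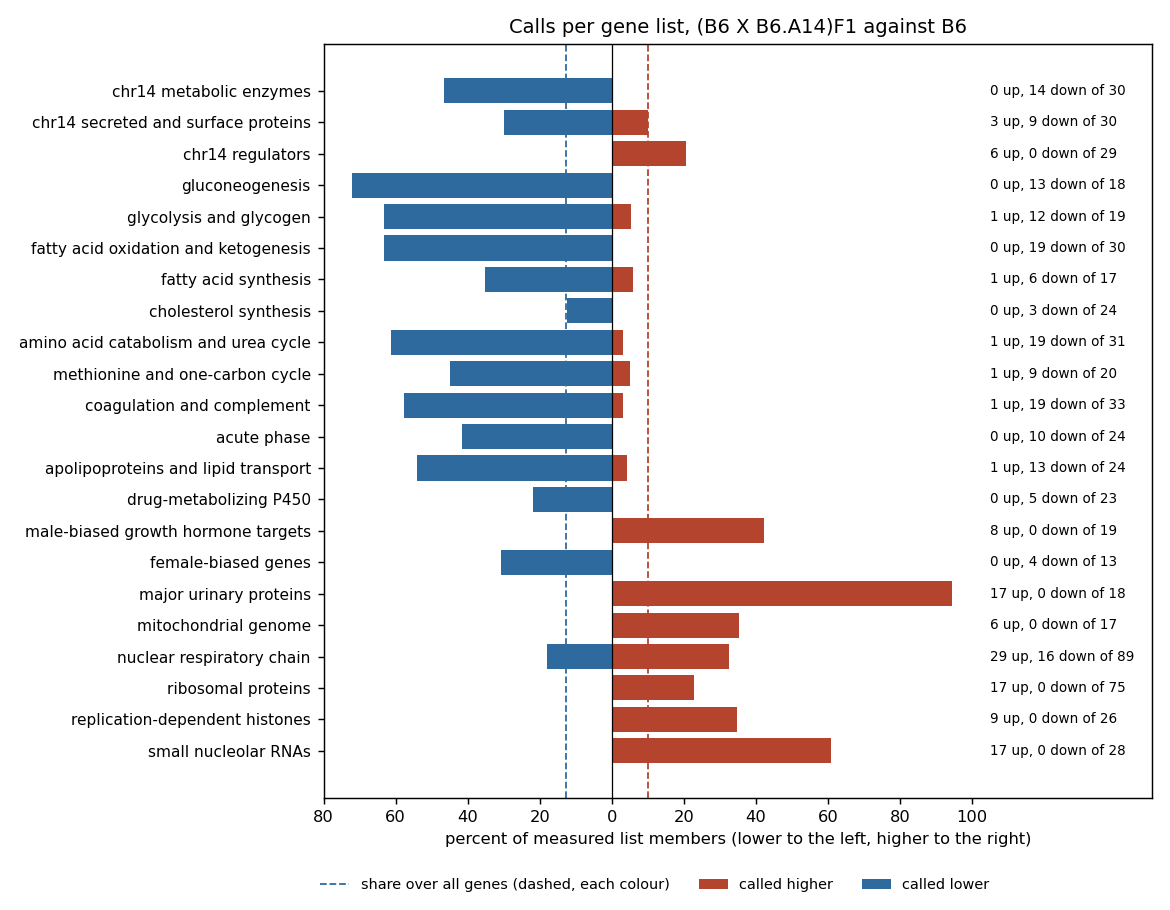
Percent of measured members called higher (red, right) and lower (blue, left) in 22 gene lists and families, with the counts beside each bar. Dashed lines give the shares over all 13289 genes, 9.98% higher and 12.6% lower; gluconeogenesis reaches furthest to the left with 13 of 18 lower, and the major urinary proteins furthest to the right with 17 of 18 higher.

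Lower counts in these lists were sensitive to the fit. With 10 surrogate variables, under which 3.43% of all genes were lower and 2.53% higher, lower counts were 4 in gluconeogenesis, 5 in glycolysis and glycogen, 1 in fatty acid oxidation, 9 in amino acid catabolism, 3 in the methionine cycle, 12 in coagulation and complement, 9 in the acute phase and 7 in lipid transport. Without mice 7 and 8, under which 6.13% were lower and 5.18% higher, they were 6, 9, 11, 12, 3, 13, 6 and 9. The 17 higher Mup genes were 14 and 17. In the pair with chromosome 8, measured against (B6.A8 X B6)F1, the median fold change was above 0 in each of these lower lists. It ran from 0.07 in the acute phase to 0.37 in lipid transport. With chromosomes 4, 5 and 10 gluconeogenesis had -0.07, -0.01 and 0.07 and fatty acid oxidation -0.15, -0.14 and 0.20. In the same order the acute phase had -0.31, 0.14 and -0.0038 and coagulation and complement -0.23, 0.016 and -0.11.

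Members of several further transcript families were higher. Counts in this paragraph stand beside 9.98% higher and 12.6% lower over all genes. Of 28 small nucleolar RNAs, which guide RNA modification, 17 were higher and 0 lower, with a median of 0.70. Scarna13 and Snord13 changed by 0.74 (FDR = 3.39e-06) and 1.45 (FDR = 1.43e-04), and Scarna2 and Scarna6 by 0.51 (FDR = 3.96e-04) and 0.64 (FDR = 0.00198). Of 26 replication-dependent histone genes, 9 were higher and 0 lower, Hist1h1c at 0.77 (FDR = 1.76e-05) and Hist1h2bc at 0.35 (FDR = 5.89e-05) among them. Of 17 genes of the mitochondrial genome, 6 were higher and 0 lower, and their summed level was 103247 to 157573 CPM against 64996 to 130084 in B6. mt-Co1, a subunit of cytochrome oxidase, changed by 0.39 (FDR = 1.54e-06), mt-Nd6 by 0.59 (FDR = 0.00228) and mt-Rnr2, the large ribosomal RNA, by 0.65 (FDR = 0.00238). Of 75 ribosomal protein genes, 17 were higher and 0 lower, with Rps14 at 0.29 (FDR = 1.45e-04) and Rpl22 at 0.26 (FDR = 2.32e-04). Of 89 nuclear genes of the respiratory chain, 29 were higher and 16 lower. The small subunits Ndufa4 and Cox6c changed by 0.39 (FDR = 4.53e-07) and 0.36 (FDR = 1.00e-06), and the ATP synthase subunits Atp5a1 and Atp5b by -0.36 (FDR = 9.73e-08) and -0.25 (FDR = 1.15e-06).

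Histone and ribosomal protein genes have near copies in the genome, so single values are uncertain. Fewer of these genes were called under the alternatives. With 10 surrogate variables 1 small nucleolar RNA, 0 histone genes, 1 mitochondrial gene, 0 ribosomal protein genes and 2 respiratory chain genes were higher, 2 ribosomal protein and 5 respiratory chain genes were lower, and the median of the ribosomal protein genes was -0.06 against 0.04 with 5. Over all genes 2.53% were higher and 3.43% lower in that fit. Without mice 7 and 8 the higher counts were 4, 5, 2, 3 and 19, and 7 respiratory chain genes were lower. Over all genes 5.18% were then higher and 6.13% lower, and the 3 of 75 ribosomal protein genes are near that share. The summed mitochondrial transcripts, higher than the B6 median in all 8 mice, moved with the other groups, and the part of this in their counts was not tested.

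Markers of cell types were examined because a bulk sample cannot tell fewer cells of a type from less RNA per cell. Over all genes 9.98% were higher and 12.6% lower. Of 8 hepatocyte markers, 4 were lower and 0 higher, Alb at -0.40 (FDR = 5.23e-04) and Cps1 among them, and of 8 periportal markers 6 were lower, with Aldh1b1 at -0.92 (FDR = 2.03e-05), Ass1 at -0.53 (FDR = 1.37e-04) and Gls2 at -0.39 (FDR = 0.00154). Their summed level was 3915 to 7517 CPM in (B6 X B6.A14)F1 and 6615 to 9724 in B6. Of 8 pericentral markers none passed the test, Cyp2e1 being at -0.19 (FDR = 0.120). Of 10 endothelial markers 4 were higher and 1 lower, with the sinusoidal lectin Clec4g at 0.66 (FDR = 6.03e-08) and Fcgr2b at 0.38 (FDR = 3.49e-05), Kdr at 0.24 (FDR = 3.82e-04) and Dnase1l3 from chromosome 14 beside them. Their sum was 445 to 579 CPM against 389 to 498. Of 10 Kupffer cell markers 2 were higher and 1 lower, Clec4f at 0.26 (FDR = 9.03e-04), Vsig4 at 0.28 (FDR = 0.00314) and Marco at -0.88 (FDR = 0.00228), and of 10 stellate cell markers 2 were higher, Lrat at 0.43 (FDR = 4.87e-05) and Hgf at 0.25 (FDR = 0.0107). For lists of 10 genes the Kupffer and stellate cell counts are near the shares over all genes. The higher endothelial markers, 40% of the list, are above the 9.98%. Their summed level was above every B6 mouse in 6 of 8 (B6 X B6.A14)F1 mice. With 10 surrogate variables 0 Kupffer cell and 1 stellate cell marker were higher, and 1 Kupffer cell marker was lower. Of 5 cholangiocyte, 5 B cell, 1 T and NK cell and 2 neutrophil markers none passed the test, but with 10 surrogate variables both neutrophil markers were lower (median -1.26). Slc4a1 of 6 erythroid markers (-1.20, FDR = 0.0192), Cidec of 2 adipocyte markers and Cela1, the only acinar marker measured (0.56, FDR = 4.43e-04), did, and Myh4, the only muscle marker, did not (2.05, FDR = 0.306). The call of Slc4a1 was lost with 10 surrogate variables, with none and in at least 1 fit leaving out 1 mouse. Cidec and Cela1 lost theirs with 10. In that fit 2 hepatocyte and 4 periportal markers were lower, and 4 endothelial markers and 1 pericentral marker were higher. The part of cell composition in the results above was not tested.

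The remaining lists are set beside the 9.98% higher and 12.6% lower over all genes. Of the clock genes, 2 of 19 were lower and 4 higher (median -0.09), Clock at 0.31 (FDR = 3.11e-05) and Npas2 at 0.86 (FDR = 0.0324) among the higher, so the median and the counts differ in sign. The value of Npas2 with 10 surrogate variables was -0.12 (FDR = 0.876). Of the growth hormone and IGF axis, 3 of 14 were lower and 2 higher (median -0.18), with Igf2r at -0.30 (FDR = 6.68e-04), Igfbp3 at -0.40 (FDR = 0.00110), Igfbp4 at -0.24 (FDR = 0.00129) and the growth hormone receptor gene Ghr at 0.29 (FDR = 0.00216). Of insulin and glucagon signalling genes, 4 of 19 were lower and 0 higher (median -0.13), with the insulin receptor gene Insr at -0.22 (FDR = 3.39e-04) and Grb14, an inhibitor of that receptor, at -0.24 (FDR = 0.00218). Of bile acid genes, 6 of 18 were lower and 2 higher (median -0.12), with Slc27a5 at -0.35 (FDR = 2.03e-05) and the uptake transporter Slc10a1 at -0.39 (FDR = 4.41e-04). Of drug-metabolizing P450 genes, 5 of 23 were lower and 0 higher (median -0.06), with Cyp2d26 at -0.24 (FDR = 5.95e-04) and Cyp2a12 at -0.26 (FDR = 0.00225). Of conjugating enzymes and NRF2 targets, 6 of 27 were lower and 5 higher (median 0.02), with Ugt2b5 at 0.49 (FDR = 2.49e-05) and Ugt2b36 at 0.37 (FDR = 5.58e-05). Of the ATF4 response, 5 of 18 were lower and 0 higher (median -0.21), Asns, Shmt2 (-0.22, FDR = 0.00878) and Psat1 (-0.98, FDR = 0.0121) among them. Lower counts with 10 surrogate variables were 0, 1, 1, 2, 2, 1 and 1 and the higher counts 1, 0, 0, 1, 0, 3 and 0, in the order given. Of the genes named in these 7 lists, Insr, Slc27a5, Cyp2d26, Ugt2b5, Ugt2b36 and Asns kept their calls there and the others lost them, Igf2r, Igfbp3, Igfbp4 and Ghr among these (FDR = 0.213, 0.124, 0.822 and 0.0813). The median of the growth hormone and IGF axis was then -0.02.

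Of liver transcription factors, 4 of 24 were lower and 1 higher (median -0.06), with Nr1i2 at -0.45 (FDR = 1.68e-05), Nr5a2 at -0.23 (FDR = 4.22e-04) and Hnf4a, a master regulator of hepatocyte genes, at -0.29 (FDR = 0.00345). Of endoplasmic reticulum folding genes, 5 of 27 were lower and 2 higher (median -0.08), with Sdf2l1 at 0.64 (FDR = 0.00525) and Atf6 at -0.21 (FDR = 0.00613). Of cell cycle genes, 5 of 25 were lower and 1 higher (median -0.17), with Rrm1 at -0.43 (FDR = 1.05e-04) and the proliferation marker Mki67 at -0.66 (FDR = 0.00946). Of glucocorticoid responsive genes, 3 of 16 were lower and 1 higher (median -0.03), with Lcn2 as above and the receptor gene Nr3c1 at 0.14 (FDR = 0.0259). Of interferon-stimulated genes, 0 of 29 were lower and 2 higher (median 0.05), with Ifit2 at 0.41 (FDR = 0.00610) and Irf7 at 0.28 (FDR = 0.0332). Lower counts with 10 surrogate variables were 0, 1, 1, 1 and 0 and the higher counts 0, 0, 0, 0 and 0, in the order given. The calls of Nr1i2, Nr5a2 and Hnf4a were lost there (FDR = 0.0507, 0.0981 and 0.387), and of the other genes named in these lists only Rrm1 and Lcn2 kept theirs.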

How the data were processed

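Liver total RNA of male mice was sequenced as single reads of 50 bases. The authors aligned reads with TopHat2 to mm10, aligned the remaining reads to an A/J version of the genome, and deposited gene counts from HTSeq with GENCODE annotation. The A/J step was meant to avoid a mapping bias. The authors reported that mapping efficiency did not differ significantly between B6 and any substitution strain, over the genome or on the substituted chromosome. How A/J alleles align can still affect the counts of single chromosome 14 genes, which was not tested here. The strand setting of counting is not given in the sources used here. The 154 libraries held 4638701 to 30465477 counts, and all were fitted together with strain and 5 surrogate variables (R 4.3.3, edgeR 4.0.16 glmQLFit with TMM, sva 3.50.0). DESeq2 1.42.0, other filters, numbers of surrogate variables, thresholds and left-out mice were alternatives. Rows without a position in GENCODE vM21 were kept as trans genes. The fit was tested on simulated data.

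Named genes were the 12 cis and 10 trans genes with the largest called increases and as many decreases at an average log2 CPM of at least 2, up to 15 called trans genes with the smallest p of those repeated with the same sign in 3 or more backgrounds, and 2 to 4 members per list, called members with the smallest p first. Members and lists were chosen with earlier results of these data known, and some lists overlap. A few genes that these rules name are not reported here.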

Additional observations from a re-analysis of the deposited data

Results flagged for a closer look

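In 206 groups of 8 (B6 X B6.A14)F1 mice, 1 per named gene, the distance of the lowest or highest mouse to its neighbour was compared with the range of the group on the log2(CPM + 1) scale. It exceeded Dixon's critical value in 4 genes, and chance flags about 1 in 20 groups. The sinusoidal endothelial lectin gene Clec4g had a lowest mouse at 50.5 CPM with a ratio of 0.53. Haus4, an augmin subunit gene, had a highest mouse at 11.8 CPM (0.584), Ngdn a lowest mouse (0.583) and Spp1, the osteopontin gene, a highest mouse at 46.8 CPM (0.535).

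The effect of the A/J chromosome 14 against B6 was also set against its mean in the 4 backgrounds with chromosome 4, 5, 8 or 10, and the difference was tested by edgeR for 68 named genes. It passed an FDR of 0.05 in 32. Genes named for a large change against B6 favour a difference in that direction. On the log2 scale, against B6 minus the mean of 4, the chromosome 14 genes with a higher value in the B6 background were Fam25c (0.93), Tsc22d1 (0.84), Lrit1 (0.74), Erc2 (0.56), Dnase1l3 (0.56), Gm17066 (0.52), Rap2a (0.51), Uchl3 (0.48), Klf12 (0.37), 1700123O20Rik (0.28) and Tmem260 (0.24). Those with a lower value were Mat1a (-0.73), Mmp14 (-0.69), Itih4 (-0.64), Itih3 (-0.63), Itih1 (-0.50) and Prmt5 (-0.37). Outside chromosome 14 the higher values were those of Mup17 (4.77), Mup18 (3.32), Mup11 (3.08), Mup16 (3.03), Mup7 (2.83), Mup9 (2.71), Rprl3 (2.65), Mup12 (2.63), Elovl3 (2.54) and Gm13775 (1.82), and Rprl3 is already high beside chromosome 4 in mice without an A/J chromosome 14. The lower values were those of Slc22a26 (-2.32), Lepr (-1.74), Cidec (-1.62), Nrg4 (-1.18) and Fads1 (-0.32). Without the pair with chromosome 8 the difference did not pass for 1700123O20Rik (FDR = 0.124), Fads1 (FDR = 0.372), Itih4 (FDR = 0.0620) and Tmem260 (FDR = 0.0987).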

How the results depend on the processing

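With 10 surrogate variables the called genes fell to 64 in cis and 728 in trans, and 61 and 636 were the same genes with the same sign as reported. With none, 19 called cis and 38 called trans genes were repeated in at least 2 of 4 backgrounds, against 30 and 86 as reported. At an FDR under 0.01, 1641 trans genes were called and 56 were repeated. Without mice 7 and 8, left out after seeing the data, 86 cis and 1417 trans genes were called. Leaving out 1 (B6 X B6.A14)F1 mouse gave 83.5% to 106% of the reported cis count and 2176 to 2979 trans genes, the fewest trans genes without mouse 7, and leaving out 1 B6 mouse gave 95.0% to 102% and 2613 to 2936. In these fits the surrogate variables of all mice were kept. Of the reported calls, 74.1% in cis and 62.7% in trans held in each. With 10 surrogate variables the log2 fold changes of Mki67 (9.18e-05), Npas2 (-0.12) and Tef (0.16) changed sign. The cause was not tested. DESeq2 size factors, the DESeq2 Wald test, the fit to the 28 mice, the count filter, the other quasi-likelihood version and adjustment over all genes kept both counts within 1.5 times, at 110 to 148 cis and 2245 to 3153 trans genes. No paired analysis was possible because the labels give no shared replicate numbers, mice being numbered within a group by accession order. Low counts limit single genes: Mir15a, Slc39a2 and H19 had medians of about 1 CPM or less in a group, so their levels rest on few reads.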
